A study of Mus musculus with 4 samples.

Results

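The genes of 10 histone acetyltransferases, *Crebbp*, *Ep300*, *Kat2a*, *Kat2b*, *Hat1*, *Kat5*, *Kat6a*, *Kat6b*, *Kat7* and *Kat8*, were picked by symbol from the 17559 genes listed in the files, and all 10 were found and tested. Expression was measured by RNA-seq in CD8+ T cells of OT-I mice, whose transgenic T cell receptor recognises an ovalbumin peptide, of strain C57BL/6 and from tissue labelled LN. The 2 NaBu libraries came from cells exposed to 1 mM NaBu, the usual abbreviation of sodium butyrate, for 12 h, and the 2 control libraries from cells given the control treatment. Cells of both groups, over 95% pure after magnetic depletion of other cells, had been activated for 2 d by coated antibodies to CD3 (at 1 µg/ml) and CD28 (at 2 µg/ml), with IL-2 at 10 ng/ml, and then grown for 2 d with IL-2 only. The labels used here state neither the animals' age nor whether the libraries of a group came from separate animals or cultures, so the spread behind the p-values is that between these libraries and may be technical.

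Histone acetyltransferases transfer the acetyl group of acetyl-CoA to lysines of histones, which loosens chromatin and creates binding sites for bromodomain proteins, and histone deacetylases remove it. Butyrate is a known inhibitor of histone deacetylases. The family holds several groups that differ in structure and partners. CBP (*Crebbp*) and p300 (*Ep300*) are large coactivators recruited by many transcription factors. GCN5 (*Kat2a*) and PCAF (*Kat2b*) are alternative catalytic subunits of the SAGA and ATAC complexes. The MYST enzymes are TIP60 (*Kat5*), MOZ (*Kat6a*), MORF (*Kat6b*), HBO1 (*Kat7*) and MOF (*Kat8*). HAT1 (*Hat1*) acetylates newly made histone H4 before its deposition on DNA. In T cells, the acetylation by these enzymes accompanies the opening of effector genes on activation.

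Expected counts summed to between 19857701 and 19859649 in the NaBu libraries and between 20344399 and 20548571 in the controls, and the 4 markers of CD8 T cells had a summed level of 1103 and 1100 FPKM in NaBu, against 1051 and 1016 FPKM in controls. An FPKM value is a fragment number divided by transcript length and by the library's mapped fragments. Of these markers, both coreceptor genes were called lower by edgeR, *Cd8a* at 93.88 and 96.96 FPKM in NaBu, against 118.38 and 115.87 FPKM in controls, and *Cd8b1* at 155.14 and 155.16 FPKM, against 217.85 and 215.13 FPKM. *Cd3e* was also called lower (log2 fold change -0.16), and only *Cd3g* higher (0.41, at 556.7 and 554.5 FPKM in NaBu and 407.01 and 374.69 FPKM in controls), so the higher sum came from *Cd3g*. Of the markers of other cells, *Cd4* was at 0.66 and 0.65 FPKM in NaBu and 0.02 and 0.03 FPKM in controls. Myeloid and dendritic markers (4 of 6 fixed) summed to 9.27 and 8.63 FPKM in NaBu, against 2.9 and 3.07 FPKM in controls. Most of that sum was *Itgam* (4.83 and 3.79 FPKM in NaBu, 0.45 and 0.45 in controls) and *Itgax* (4.24 and 4.66, against 2.24 and 2.42). *Cd14* was at 0.18 and 0.18 FPKM in NaBu and 0.21 and 0.2 FPKM in controls. The 3 B cell markers (of 4 fixed) summed to 2.62 and 1.96 FPKM in NaBu and 5.73 and 4.07 FPKM in controls, and the 2 NK cell markers to 4.94 and 5.57 FPKM, against 10.5 and 9.34 FPKM. Of the markers that were listed, none was at 0 in all libraries, although *Adgre1* did not exceed 0.02 FPKM. The other fixed B cell and myeloid markers, *Ms4a1*, *Lyz2* and *Csf1r*, were looked up by symbol. They were not among the genes listed for any library, so no level is given for them. The part of other cell types in the results was not tested. In bulk RNA, fewer cells of a type and less RNA per cell cannot be told apart.

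Promoter sequences of 2 paralog pairs are shown first, because the results below turn on how the members of such pairs differed. Windows run from 250 bases before to 50 after an annotated start, are taken from RefSeq on GRCm38.p6 (the assembly also called mm10), and are read 5′ to 3′ on the gene's strand. RefSeq windows were matched for 9 of the 10 genes, without *Kat6a*, and the most upstream one was used where a gene had more. The start that a window is built on is not always the gene's outermost listed end: it lay 553 bases inside the gene for *Crebbp*, 1462 for *Kat5*, 554 for *Kat6b* and 197 for *Kat2b*, and at most 18 for the other 5. Capitals mark any of 6 motifs on either strand: TGACG, the core of the cAMP response element bound by CREB; TGACGTCA, the full element, which holds the core; CCGGAAGT, bound by ETS factors; GCGGGAA, bound by E2F factors; CCAAT, bound by NF-Y; and GGGCGG, bound by SP1. The motifs were chosen after the sequences had been seen.
Crebbp, chr16:4213355-4213654, minus strand: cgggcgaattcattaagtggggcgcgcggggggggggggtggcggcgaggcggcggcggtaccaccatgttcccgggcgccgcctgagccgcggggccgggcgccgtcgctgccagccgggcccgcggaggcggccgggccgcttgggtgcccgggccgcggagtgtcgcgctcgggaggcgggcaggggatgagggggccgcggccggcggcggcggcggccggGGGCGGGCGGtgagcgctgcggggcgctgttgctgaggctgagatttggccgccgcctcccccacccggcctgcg
Ep300, chr15:81585964-81586263, plus strand: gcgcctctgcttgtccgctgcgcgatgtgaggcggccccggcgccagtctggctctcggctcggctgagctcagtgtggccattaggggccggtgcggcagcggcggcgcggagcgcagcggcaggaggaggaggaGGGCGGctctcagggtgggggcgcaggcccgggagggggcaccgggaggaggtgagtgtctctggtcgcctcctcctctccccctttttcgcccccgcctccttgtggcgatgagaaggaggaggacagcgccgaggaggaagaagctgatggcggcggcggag
Kat2b, chr17:53566721-53567020, plus strand: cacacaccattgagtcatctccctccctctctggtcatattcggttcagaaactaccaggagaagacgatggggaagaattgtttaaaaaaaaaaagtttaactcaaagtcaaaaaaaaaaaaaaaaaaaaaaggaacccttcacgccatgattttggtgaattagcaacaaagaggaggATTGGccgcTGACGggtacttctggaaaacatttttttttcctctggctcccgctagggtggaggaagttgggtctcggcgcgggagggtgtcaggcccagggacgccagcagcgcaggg
Kat2a, chr11:100712418-100712717, minus strand: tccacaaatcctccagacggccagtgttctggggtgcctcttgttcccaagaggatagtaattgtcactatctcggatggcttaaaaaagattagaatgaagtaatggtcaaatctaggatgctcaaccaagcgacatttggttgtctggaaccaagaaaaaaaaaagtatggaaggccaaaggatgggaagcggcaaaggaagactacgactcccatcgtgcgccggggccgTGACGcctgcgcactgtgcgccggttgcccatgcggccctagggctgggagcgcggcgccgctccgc
The *Crebbp* and *Ep300* windows were rich in G and C (82.0% and 72.3%) with 49 and 30 CpG dinucleotides, against a median of 53.0% and 7 CpG over 32544 windows of the same length. They held GGGCGG, present in 35.9% of all windows, and none of the other motifs. The *Kat2b* window held long A runs and 11 CpG at 47.0% G and C, and the *Kat2a* window 19 CpG at 54.3%. Both had 1 TGACG, a motif found in 20.9% of all windows, and *Kat2b* also had 1 CCAAT, found in 37.4%.

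The ETS motif was found in the windows of *Hat1*, *Kat5*, *Kat7* and *Kat8*, and in 3.92% of all windows. It was the rarest of the motifs that any member's window held, and 40 bases around the first match in each are shown, with the motif in capitals.
Hat1, chr2:71389216-71389255, plus strand: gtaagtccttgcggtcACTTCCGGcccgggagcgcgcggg
Kat5, chr19:5610058-5610097, minus strand: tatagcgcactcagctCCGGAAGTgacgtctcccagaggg
Kat7, chr11:95310223-95310262, minus strand: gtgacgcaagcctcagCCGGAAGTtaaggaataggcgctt
Kat8, chr7:127912501-127912540, plus strand: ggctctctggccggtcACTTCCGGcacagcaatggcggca
*Kat5* had a second match in its window. No member's window held the E2F motif (4.63% of all windows) or the full cAMP response element (1.8%), which says only that these letters are not in these windows. The calls given below did not separate genes with the ETS motif from those without it. With the motif, *Hat1*, *Kat5* and *Kat7* were lower in NaBu and *Kat8* did not pass. Of the genes whose windows lacked the motif, *Crebbp*, *Kat2a*, *Kat2b* and *Kat6b* were lower as well, and *Ep300* was higher.

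Setting NaBu against control addressed whether butyrate exposure changed the genes of the enzymes that write histone acetylation. Of the 10 genes, 7 fell and 1 rose, and *Kat6a* and *Kat8* did not pass the quasi-likelihood test of edgeR (threshold 0.05 after Benjamini-Hochberg adjustment over all genes). Over all 12943 tested genes, 68.6% passed, 34.5% higher and 34.1% lower, so that 8 of 10 passing is near the background and 7 of 10 lower is above it; no test of the list was made. The median log2 fold change was -0.65 over the 10 genes and 0.005 over all tested genes. With the trend of GC content removed, 7 were lower and 0 higher, beside 74.4% of all tested genes that passed in that fit, 44.0% lower and 30.3% higher, and its median over all genes was -0.121. When edgeR's glmTreat asked for a change beyond 1.5-fold, 4 of the 10 passed, all lower, beside 29.2% of all tested genes that passed and 12.1% that were lower by that test.

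**Figure D1:**
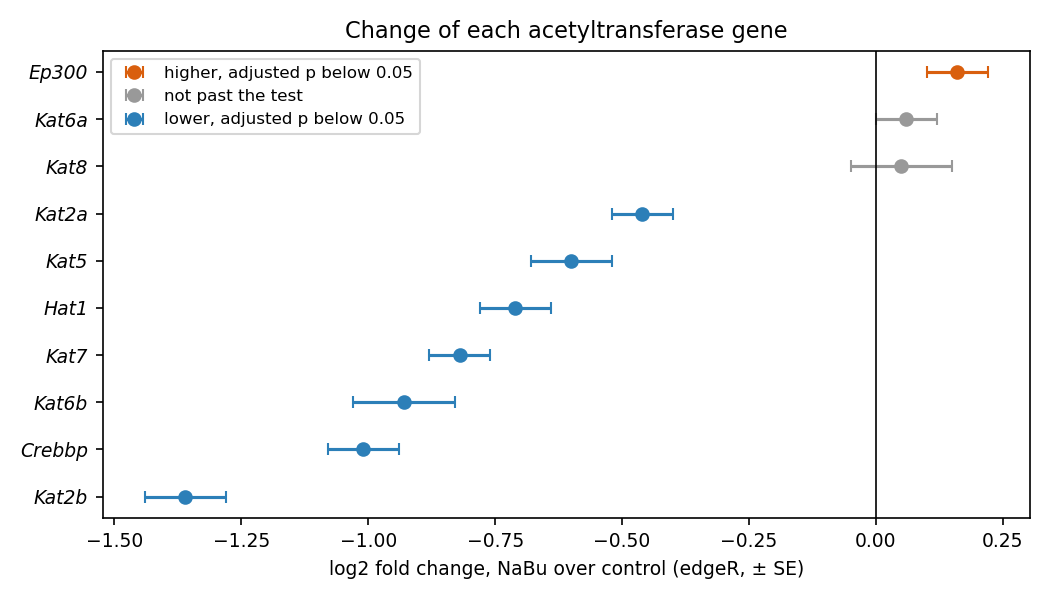
Log2 fold change of each gene in NaBu over control with its standard error (horizontal axis, edgeR, 2 libraries per group); colours give the call at an adjusted p of 0.05. *Kat2b* is the lowest at -1.36 and *Ep300* the highest at 0.16, and *Kat6a* and *Kat8* lie within about 1 standard error of 0.

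CBP and p300, which share most of their domains and many partners, did not change in the same direction. *Crebbp* (gene 12914, mm10 chromosome 16, 4081334 to 4213957) had 5.28 and 5.29 FPKM in NaBu, against 9.76 and 10.21 FPKM in controls. Both NaBu libraries were well below both controls. It fell 2.02-fold (log2 fold change -1.01 ± 0.07, SE; edgeR adjusted p = 3.43e-07) and passed the stricter 1.5-fold null (adjusted p = 5e-05).

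*Ep300* (gene 328572, chromosome 15, 81586209 to 81652077) had 28.28 and 29.65 FPKM in NaBu, against 24.72 and 23.66 FPKM in controls. The groups did not overlap, which held for 84.0% of all tested genes. It rose by 0.16 ± 0.06 (SE) on the log2 scale (edgeR adjusted p = 0.0343). This small rise was not called without NaBu 1 (adjusted p = 0.121), without NaBu 2 (0.304), with the replicate number as a block (0.0663), without a filter on low counts (0.0758) or with the GC trend removed, where the log2 fold change was 0.02 (0.72). The lower call of *Crebbp* and the higher call of *Ep300* were opposite in sign, but only the first held under each of the 17 alternatives.

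Within each library, the ratio of *Crebbp* to *Ep300* in FPKM was 0.187 and 0.178 in NaBu, against 0.395 and 0.432 in controls. The summed FPKM of both genes was 33.6 and 34.9 in NaBu and 34.5 and 33.9 in controls. In FPKM the groups therefore overlapped in the sum and were far apart in the ratio. The overlap depends on the scaling. Divided by the TMM library factors of the edgeR test (1.035 and 1.033 for NaBu, 0.9681 and 0.966 for controls), both NaBu sums lie below both control sums. The ratio within a library does not depend on these factors. FPKM is divided by the length of the listed transcript, and for *Crebbp* the files list 7507 bases where the matching GENCODE M21 transcript has 10820, so its level relative to *Ep300* (8749 bases listed, 9566 in GENCODE) depends on the annotation; whether the difference between groups does was not tested.

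The SAGA and ATAC enzymes both fell, *Kat2b* further. *Kat2b* (gene 18519, chromosome 17, 53566774 to 53672721) had 3.27 and 3.24 FPKM in NaBu, against 7.69 and 7.8 FPKM in controls. This was the largest change among the 10 genes, 2.57-fold (log2 fold change -1.36 ± 0.08, SE; edgeR adjusted p = 2.13e-07). Only 4.27% of tested genes had a lower log2 fold change.

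*Kat2a* (gene 14534, chromosome 11, 100704746 to 100712485) had 28.87 and 27.32 FPKM in NaBu, against 36.29 and 36.12 FPKM in controls. It fell 1.38-fold (log2 fold change -0.46 ± 0.06, SE; edgeR adjusted p = 5.48e-05) and did not pass the 1.5-fold null. At 57.7%, its transcripts had the highest GC content of the 10 genes, and with the GC trend removed its log2 fold change was -0.93. The ratio of *Kat2b* to *Kat2a* was 0.113 and 0.119 in NaBu, against 0.212 and 0.216 in controls. Of the 50-base stretches of the *Kat2b* transcript, 7.75% also occur in a pseudogene, *Kat2b-ps*, so a part of its reads could have been divided differently.

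**Figure D2:**
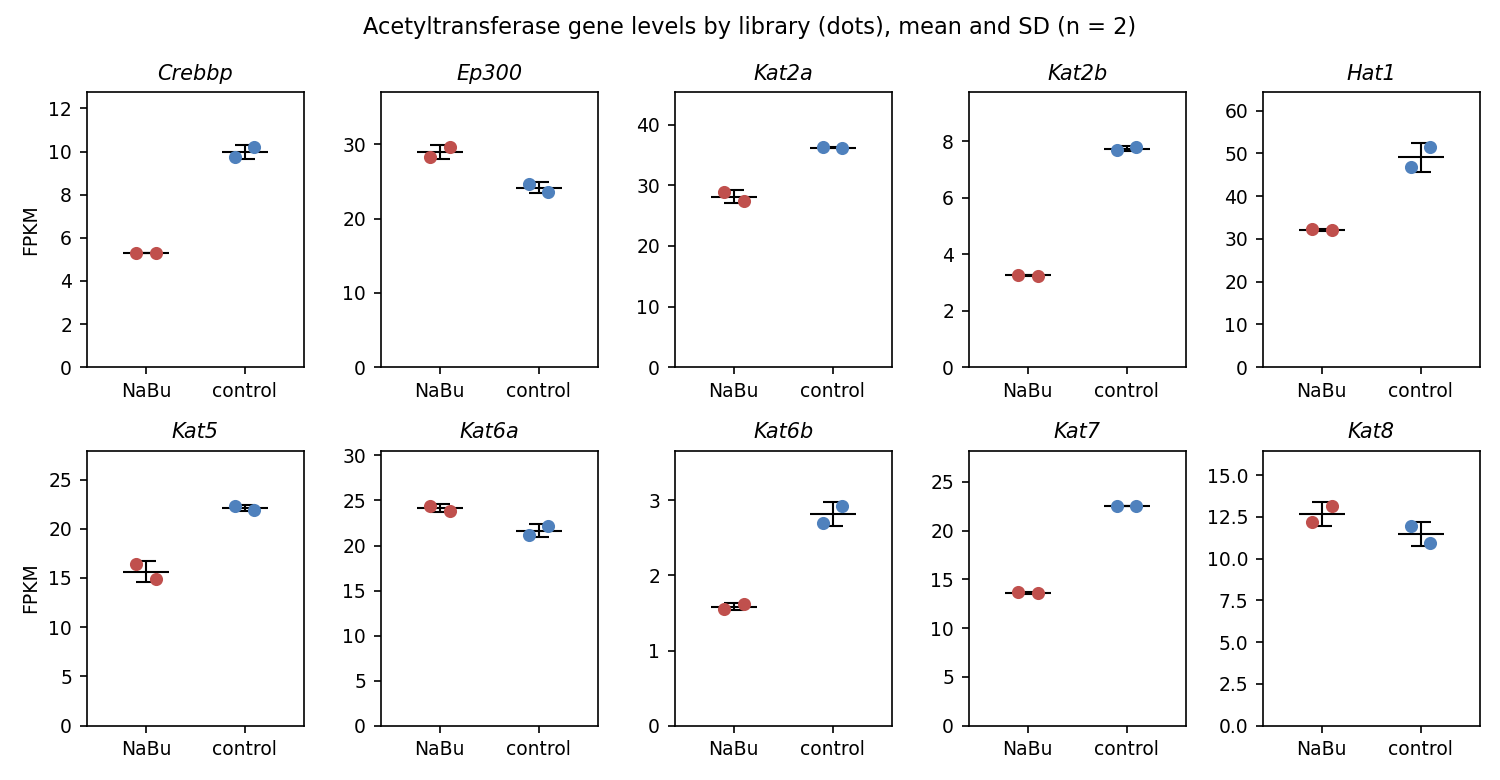
FPKM of each gene in each library (dots; NaBu red, control blue), with the mean (horizontal line) and SD (n = 2); each vertical axis starts at 0 and has its own scale. In every panel the NaBu and control dots are separate, as for 84.0% of all tested genes. NaBu lies below control in 7 panels and above it in those of *Ep300*, *Kat6a* and *Kat8*. FPKM carries no TMM factor, and *Kat6a* and *Kat8* did not pass the edgeR test, which uses these factors.

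Among the MYST enzymes, the MOZ and MORF pair showed the same arrangement, with the less abundant gene lower. *Kat6b* (gene 54169, chromosome 14, 21499216 to 21672478) had 1.55 and 1.62 FPKM in NaBu, against 2.7 and 2.93 FPKM in controls, the lowest level of the 10 genes in both groups. Its fall was 1.9-fold (log2 fold change -0.93 ± 0.1, SE; edgeR adjusted p = 1.04e-05). *Kat6a* (gene 244349, chromosome 8, 22859442 to 22943259), at 24.44 and 23.84 FPKM in NaBu and 21.12 and 22.13 FPKM in controls, did not pass the test, with a log2 fold change of 0.06 ± 0.06 (SE; edgeR adjusted p = 0.377). On library totals without TMM factors, which moved the median of all genes from 0.005 to 0.101, it was called higher at 0.16 (adjusted p = 0.0349). The ratio of *Kat6b* to *Kat6a* was 0.0634 and 0.068 in NaBu, against 0.128 and 0.132 in controls.

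**Figure D3:**
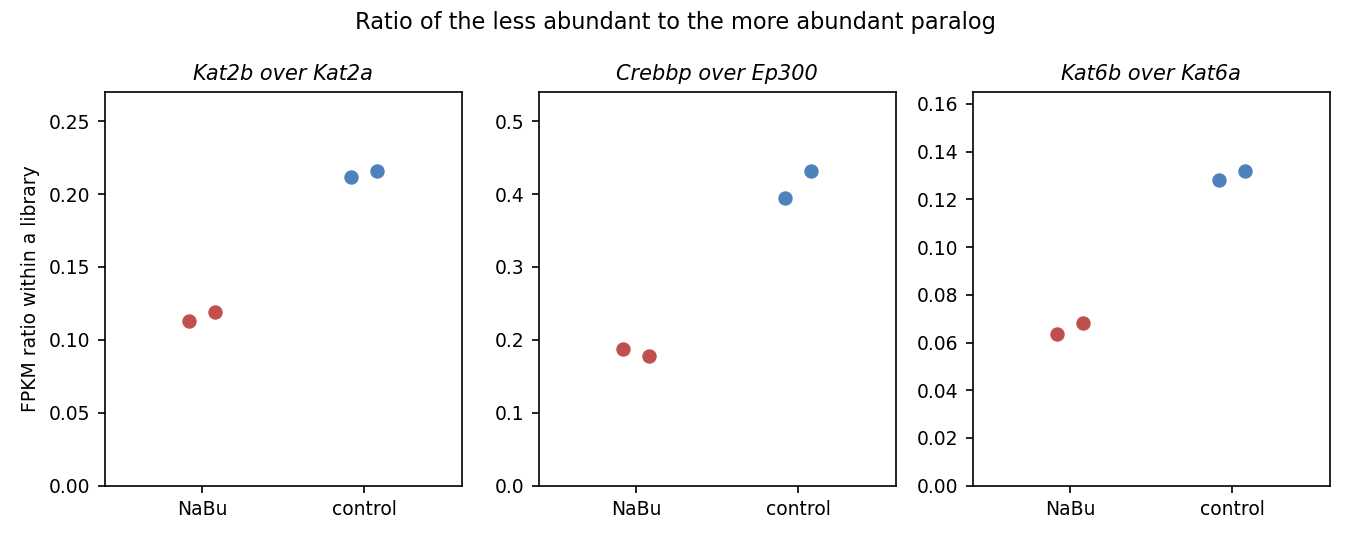
Ratio of FPKM of the less abundant to the more abundant paralog within each library (dots), NaBu left and control right, for *Kat2b* over *Kat2a*, *Crebbp* over *Ep300* and *Kat6b* over *Kat6a*. In all 3 pairs both NaBu ratios lie below both control ratios, for example 0.187 and 0.178 against 0.395 and 0.432 for *Crebbp* over *Ep300*.

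In these 3 pairs the ratio in each NaBu library was below that in each control, and the pairs were chosen for this description after their values had been seen. No test was made of the ratios: with 2 libraries against 2, an exact two-sided permutation test cannot go below p = 0.333.

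*Kat7* (gene 217127, chromosome 11, 95271853 to 95310246), whose enzyme HBO1 acetylates histones H3 and H4 and helps license replication origins, had 13.66 and 13.57 FPKM in NaBu, against 22.58 and 22.57 FPKM in controls. Replicates were nearly equal in each group. It fell 1.77-fold (log2 fold change -0.82 ± 0.06, SE; edgeR adjusted p = 5.22e-07), past the 1.5-fold null (adjusted p = 0.000993). For *Kat7* the files list a transcript length of 5953 and 5955 bases in the NaBu libraries, and the longest matching GENCODE transcript has 3560, so its level relative to other genes also depends on the annotation.

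*Kat5* (gene 81601, chromosome 19, 5603014 to 5611556) encodes TIP60, which acetylates histones H4 and H2A and acts in the response to DNA breaks. It had 16.39 and 14.89 FPKM in NaBu, against 22.36 and 21.86 FPKM in controls. Its fall of 1.51-fold (log2 fold change -0.6 ± 0.08, SE; edgeR adjusted p = 7.34e-05) did not pass the 1.5-fold null (adjusted p = 0.526). *Rnaseh2c* on the opposite strand shares 14.9% of the 50-base stretches of its transcripts, and the sources used here give no strandedness, so reads of both genes cannot be fully told apart. *Rnaseh2c* itself had 38.37 and 43.64 FPKM in NaBu and 46.57 and 41.57 FPKM in controls.

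*Kat8* (gene 67773, chromosome 7, 127912517 to 127925838) encodes MOF, the main enzyme for one lysine of the histone H4 tail, in the MSL and NSL complexes. It had 12.17 and 13.18 FPKM in NaBu, against 11.98 and 10.95 FPKM in controls. In FPKM the groups did not overlap, as for 84.0% of all tested genes, but NaBu 1 and control 1 lay closer together than the libraries within either group. It did not pass the test (log2 fold change 0.05 ± 0.1, SE; edgeR adjusted p = 0.668), and the sign turned with the GC trend removed (-0.12).

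*Hat1* (gene 107435, chromosome 2, 71389260 to 71441622) was the most abundant of the 10 genes in both groups. It had 32.31 and 31.99 FPKM in NaBu, against 46.72 and 51.48 FPKM in controls. It fell 1.63-fold (log2 fold change -0.71 ± 0.07, SE; edgeR adjusted p = 7.85e-06) and came close to the 1.5-fold null without passing it (adjusted p = 0.0559).

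The order of the genes by mean FPKM shifted. In NaBu it was *Hat1* (32.1 ± 0.226, SD, n = 2), *Ep300* (29.0 ± 0.969), *Kat2a* (28.1 ± 1.1), *Kat6a* (24.1 ± 0.424), *Kat5* (15.6 ± 1.06), *Kat7* (13.6 ± 0.0636), *Kat8* (12.7 ± 0.714), *Crebbp* (5.29 ± 0.00707), *Kat2b* (3.25 ± 0.0212) and *Kat6b* (1.58 ± 0.0495). There *Ep300* and *Kat2a* overlapped. In controls *Hat1* (49.1 ± 3.37) was followed by *Kat2a* (36.2 ± 0.12), *Ep300* (24.2 ± 0.75), *Kat7* (22.6 ± 0.00707), *Kat5* (22.1 ± 0.354) and *Kat6a* (21.6 ± 0.714), the last pair overlapping, and then by *Kat8* (11.5 ± 0.728), *Crebbp* (9.98 ± 0.318), *Kat2b* (7.75 ± 0.0778) and *Kat6b* (2.82 ± 0.163).

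Summed over the family, the FPKM was 166 and 165 in NaBu, against 206 and 210 in controls. *Ep300* held 17.0% and 18.0% of that sum in NaBu and 12.0% and 11.3% in controls, and *Kat6a* 14.7% and 14.5%, against 10.3% and 10.6%. *Crebbp* held 3.18% and 3.21% in NaBu and 4.74% and 4.87% in controls. The share of *Kat2a* overlapped between the groups, at 17.4% and 16.6% in NaBu and 17.6% and 17.2% in controls. Gene lengths listed by RSEM, which move when the use of a gene's transcripts changes, spanned at most 2.15% of their mean over the 4 libraries for the 5 genes with several listed transcripts.

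The proteins that work with these enzymes were described next, from lists of complex subunits. Of 55 subunit genes, 37 fell and 4 rose, beside 34.1% lower and 34.5% higher over all tested genes, and their median log2 fold change was -0.41. Against the 1.5-fold null, 17 were lower and 2 higher, beside 12.1% lower and 17.1% higher over all tested genes. The counts below for each complex and list are to be read beside the same 34.1% lower and 34.5% higher. No test of any list was made.

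**Figure D4:**
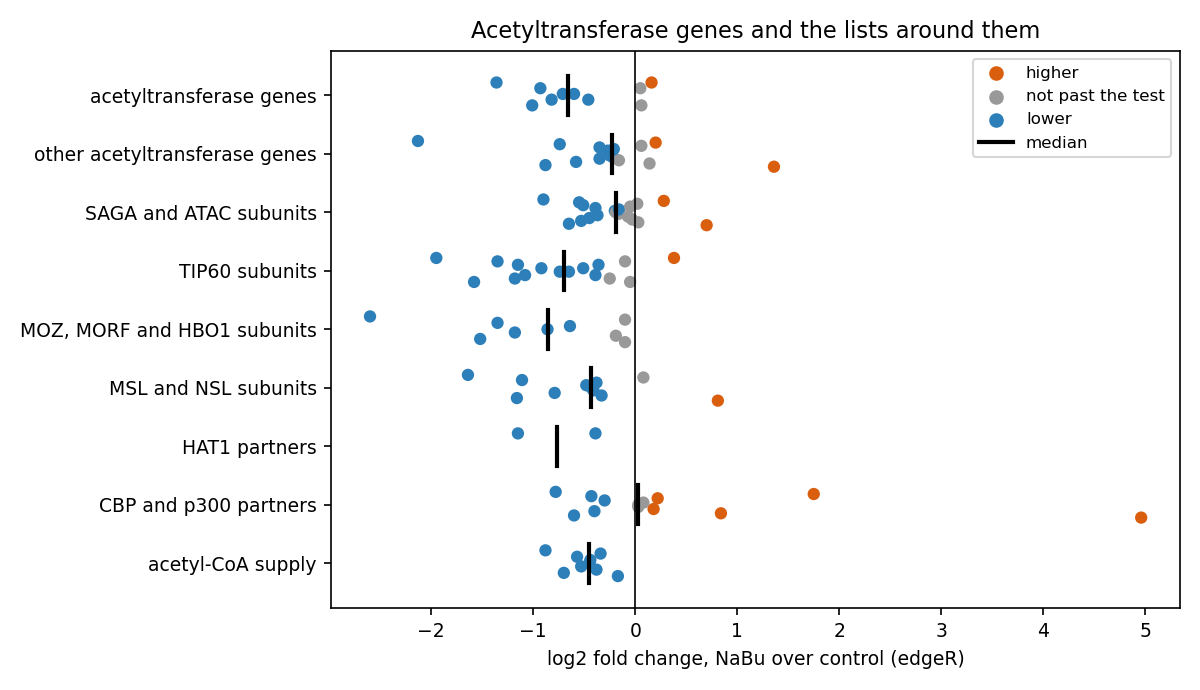
Log2 fold change in NaBu over control (horizontal axis, edgeR) of each tested gene in the acetyltransferase family and in the lists around it; dots are genes, coloured by call, and black bars are medians. The median is lowest for the MOZ, MORF and HBO1 subunits at -0.86 and below 0 in each list except the CBP and p300 partners (0.03). The dot farthest to the right is *Cited1*, which had 1 count over both controls.

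For the TIP60 complex, 12 of 16 subunit genes fell and *Mbtd1* rose (log2 fold change 0.38, not called without NaBu 1), with a median of -0.69. *Epc1*, a scaffold subunit, had 3.37 and 3.55 FPKM in NaBu, against 12.15 and 13.18 FPKM in controls (log2 fold change -1.95 ± 0.09, SE; edgeR adjusted p = 2.4e-08). *Brd8*, a bromodomain subunit, was at -1.58, and *Epc2*, the paralog of *Epc1*, at -1.35. *Kat5* itself, at -0.6, lay near this list's median of -0.69, and the 3 lower subunit genes named here were picked for the largest falls.

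The MOZ, MORF and HBO1 complexes share scaffold and reader subunits. Of these 9 genes 6 fell and none rose, beside 34.1% lower and 34.5% higher over all tested genes, with a median of -0.86. *Brpf3*, a scaffold that pairs with HBO1, had 1.42 and 1.47 FPKM in NaBu, against 8.57 and 7.79 FPKM in controls, the largest fall among the subunits (log2 fold change -2.6 ± 0.1, SE; edgeR adjusted p = 7.57e-09). *Jade1* and *Jade2*, alternative HBO1 scaffolds, were at -1.52 and -1.35. The scaffolds *Brpf1* (17.8 ± 0.219 FPKM in NaBu and 18.0 ± 0.679 in controls, SD, n = 2) and *Brd1* (22.4 ± 0.516 and 22.4 ± 0.7 FPKM) did not pass the test; these 2 were chosen after their values had been seen. With the GC trend removed all 9 were lower, in a fit with 44.0% of all tested genes lower.

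Of 11 MSL and NSL subunit genes, 9 fell and *Phf20* rose (log2 fold change 0.81 ± 0.07, SE), with a median of -0.43. Over all tested genes 34.1% were lower and 34.5% higher. *Hcfc1*, a host cell factor of several chromatin complexes, had 19.17 and 21.24 FPKM in NaBu, against 59.42 and 58.15 FPKM in controls (log2 fold change -1.64 ± 0.07, SE; edgeR adjusted p = 1.6e-08). The MSL genes *Msl3* and *Msl1* were at -1.16 and -1.11 and *Msl2* at -0.38, while their enzyme's gene *Kat8* did not pass.

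Of 19 SAGA and ATAC subunit genes, 10 fell and 2 rose, beside 34.1% lower and 34.5% higher over all tested genes, with a median of -0.19. *Atxn7*, which anchors the deubiquitinase module, was at -0.9, *Tada1* at -0.65 and *Supt3* at -0.55. *Usp22*, the deubiquitinase, rose by 0.7 ± 0.06 (SE) on the log2 scale, at 25.5 ± 0.537 FPKM in NaBu and 14.7 ± 0.0424 FPKM in controls, and *Yeats2*, an ATAC reader, rose by 0.28, a call lost without NaBu 2. The HAT1 partner *Rbbp7*, a histone chaperone, had 71.61 and 73.89 FPKM in NaBu, against 140.98 and 160.75 FPKM in controls, and fell 2.22-fold with its paralog *Rbbp4* at -0.39.

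Of 17 other genes with a known or reported acetyltransferase activity, 12 fell and 2 rose, with a median of -0.23; on library totals 6 fell and 4 rose, and without NaBu 2 only 5 fell and without NaBu 1 only 7. The 12 and 2 stand beside 34.1% lower and 34.5% higher over all tested genes. These shares are not the background of the other fits. On library totals fewer of all tested genes were lower and more were higher than in the main test. The median of all genes was then 0.101, beside -0.13 for this list. Without NaBu 1 or without NaBu 2, fewer of all tested genes were called in either direction. How far this list exceeds the background in lower genes therefore depends on the setting. *Esco2*, which acetylates cohesin in S phase, had 6.18 and 6.36 FPKM in NaBu, against 22.38 and 29.14 FPKM in controls. Its log2 fold change was -2.13 ± 0.12 (SE, edgeR adjusted p = 1.12e-07). *Csrp2bp*, also called *Kat14*, the second enzyme of ATAC, was at -0.88, and *Taf1*, the largest TFIID subunit, at -0.74. *Naa40*, which acetylates the amino end of histones H4 and H2A, was at -0.58. *Atat1*, the alpha-tubulin acetyltransferase, rose by 1.36 ± 0.2 (SE) on the log2 scale, at 5.91 and 5.69 FPKM in NaBu and 2.55 and 1.61 FPKM in controls.

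The remaining genes that fell changed less. *Elp3*, of the Elongator complex, and *Esco1*, the paralog of *Esco2*, were each at -0.35, *Cdyl* at -0.27, *Clock* at -0.25, *Ncoa1* and *Ncoa2* at -0.23, *Nat10*, an RNA acetyltransferase, at -0.22 and *Atf2* at -0.21. Of these, *Elp3* kept its call under every alternative except the 1.5-fold null, and the other 7 lost theirs under further settings. *Ncoa3*, a nuclear receptor coactivator, rose by 0.2 and was not called without NaBu 1, without NaBu 2 or with the GC trend removed. *Gtf3c4* (0.14), *Naa60* (0.06) and *Naa50* (-0.16) did not pass. *Gtf3c4* was called higher without control 2 (0.202, edgeR adjusted p = 0.0319) and on library totals (0.239, adjusted p = 0.0163). *Naa60* had no stable direction: it was called lower with the GC trend removed (-0.142, adjusted p = 0.0401) and higher on library totals (0.16, adjusted p = 0.0438). For *Naa50*, 1 control library decided the value, which was -0.29 and called lower without control 1 (adjusted p = 0.00051), -0.011 without control 2 and 0.074 with the GC trend removed.

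Of 13 partners of CBP and p300, 5 rose and 5 fell, with a median of 0.03; after removal of the GC trend 8 fell and 2 rose, beside 44.0% and 30.3% of all tested genes, and without NaBu 1 or without NaBu 2 only 3 rose. *Hif1a*, the oxygen-regulated factor, rose by 0.84 ± 0.08 (SE) on the log2 scale, with 193.61 and 189.79 FPKM in NaBu, against 92.59 and 107.63 FPKM in controls. *Cited1*, a regulator that binds CBP and p300, had 40 counts over both NaBu libraries and 1 over both controls, a ratio of 41.2 on library totals with an exact 95% interval from 6.98 to 1667 that covers counting error only. *Crtc1*, a CREB coactivator, was at -0.78, *Atf1* at -0.6 and *Crem* at -0.43, both CREB relatives. *Crtc2* rose by 0.22, was not called without NaBu 1 or without NaBu 2, and was lower at -0.19 with the GC trend removed.

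All 9 genes of the acetyl-CoA supply list fell, by a median of -0.45, and 8 on library totals. *Acly*, which makes acetyl-CoA from citrate outside the mitochondria, was at -0.7 ± 0.06 (SE), with 65.7 ± 0.474 FPKM in NaBu and 99.7 ± 1.91 FPKM in controls. *Acss1*, the mitochondrial acetyl-CoA synthetase, was at -0.88, and *Pdha1*, a subunit of pyruvate dehydrogenase, at -0.57. By the 1.5-fold null of glmTreat only 2 of the 9 passed, *Acly* and *Acss1*, beside 12.1% of all tested genes lower by that test. *Pdha1* did not pass it (adjusted p = 0.757).

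**Figure D5:**
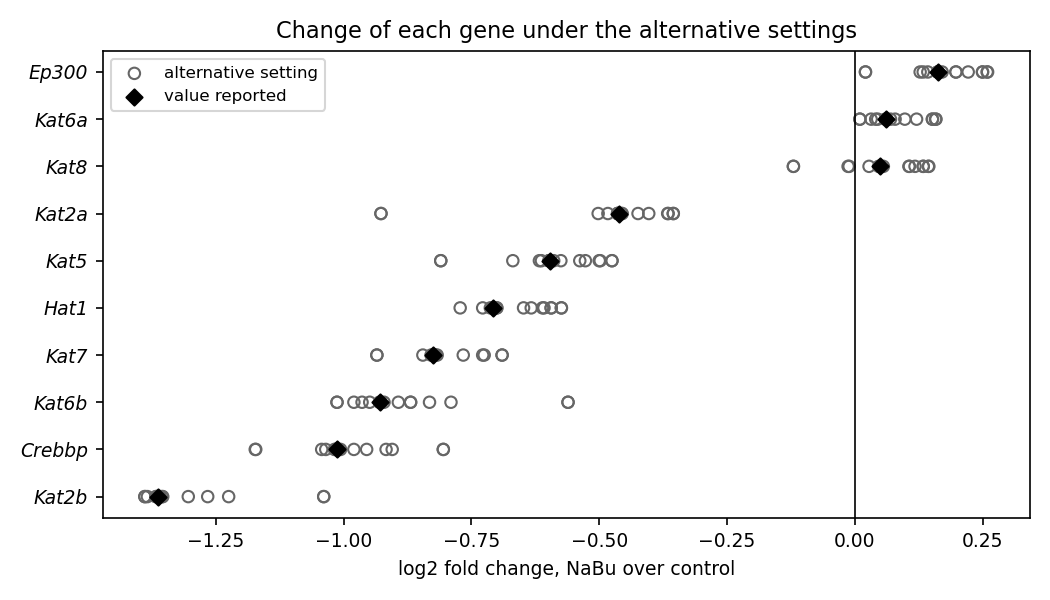
Log2 fold change in NaBu over control (horizontal axis) of each of the 10 genes as reported (diamonds) and under 17 alternative settings (open circles). The 7 lower genes stay left of 0 under each setting, *Ep300* and *Kat6a* stay right of 0, and *Kat8* lies on both sides.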

How the data were processed

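RNA-seq was deposited for 2 NaBu and 2 control libraries, grouped by the sample titles. Per the submitters' processing notes, Bowtie2 and RSEM were used with mm10; their versions, strandedness and the annotation release are not given in the sources used. The authors' expected counts per gene are estimates that need not be whole (69.3% of those above 0 are, within 1e-09), and were rounded before testing. The authors' FPKM values, scaled to transcript length and mapped fragments per the file headers, were used as deposited; the series table holds the same values. The deposited transcript length per gene was used as a description.

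The test was that of edgeR 4.0.16 (R 4.3.3; TMM, filterByExpr, quasi-likelihood F test, no covariates) over 12943 genes holding 99.95% of counts, with Benjamini-Hochberg adjustment and a threshold of 0.05. FPKM carries no TMM factor (1.035 and 1.033 for NaBu, 0.9681 and 0.966 for controls). FPKM ratios of NaBu over control therefore lie slightly above the fitted ratios, and falls in FPKM are slightly smaller than the fitted falls. A standard error is the size of the log2 fold change over the square root of F. On simulated counts of 12801 genes, 84.8% of genes changed 1.5-fold, 90.9% of those changed 2-fold and 98.4% of those changed 4-fold were called. Of unchanged genes, 0.0635% were called. Only 79 genes were changed 1.5-fold, 55 were changed 2-fold and 61 were changed 4-fold, and all genes had the same spread between replicates. In the real data 68.6% of tested genes passed, so these shares need not hold for them.

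The members and lists were chosen with earlier results of these data known. The text names all 10 members and the tested genes of the other acetyltransferase list. From the further lists it names up to 3 called genes per direction by size of change with a mean FPKM of 1 or more. *Brpf1*, *Brd1*, *Msl2* and *Rnaseh2c* were added later. Tried as alternatives were library totals and median-of-ratios factors, 5 CPM in 2 libraries or no filter, limma 3.58.1 on log2 FPKM with pseudocounts of 1 and 0.1 or no filter, limma-voom, DESeq2 1.42.0, glmTreat, a replicate block, leaving out each library and, added after seeing the data, removal of a GC trend. Replicate libraries differed by more than counting noise (chi-square per degree of freedom 2.82 in NaBu and 7.5 in controls). Transcript GC content and shared sequence came from GENCODE M21 (GRCm38), and coordinates from RefSeq on GRCm38.p6. Promoter motifs were searched as exact letters on both strands.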

Additional observations from a re-analysis of the deposited data

How the results depend on the processing

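The 7 acetyltransferase genes called lower stayed lower and past the threshold under each alternative except the 1.5-fold null of glmTreat, by which 4 were lower and 0 higher; in the same fit 2214 of all genes were higher and 1565 lower, 17 complex subunit genes lower and 2 higher, and 3 of the other acetyltransferase genes lower and 1 higher. The 1 higher call, *Ep300*, became 0 with no filter on low counts, with the replicate block, with the GC trend removed, and with both, and the count was 2 on library totals, where *Kat6a* joined it. In the fits that leave out 1 library, the lone library is assumed to vary like the others. The control libraries differed more from each other than the NaBu libraries did (chi-square per degree of freedom 7.5 and 2.82), so this assumption is doubtful. Over these fits the log2 fold change of *Ep300* ranged from 0.128 to 0.198, and it was not called without NaBu 1 or without NaBu 2. The cause of these changes was not tested. *Kat8*, not called in any setting, was at -0.12 with the GC trend removed (with and without the block), and from -0.013 to 0.118 over the fits that leave out 1 library, below 0 without NaBu 2 or without control 2.

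Of the other acetyltransferase genes, 7 were lower with DESeq2 and with a minimum of 5 CPM, 6 on library totals, and 5 with limma on log2 FPKM (both pseudocounts, and without a filter). The higher ones were 4 on library totals and with limma at both pseudocounts, and 1 with the GC trend removed, with or without the block. Leaving out 1 library gave 5 to 13 lower and 1 to 3 higher. Each setting has its own background. With limma at both pseudocounts, the share of this list called lower was slightly below that of all genes tested there. It was above that of all genes on library totals, with DESeq2, at 5 CPM and with limma without a filter. The list's median with limma was -0.12 at a pseudocount of 1 and -0.13 at 0.1, beside 0.046 and 0.051 over all genes. With the GC trend removed, *Naa60* was at -0.142 (-0.141 with the block), *Naa50* at 0.074 (0.076) and *Crtc2* at -0.19 (-0.189). The GC fit moved the median of all genes to -0.121. Deviations of same-numbered libraries from their group means correlated at -0.0306, so no pairing by replicate number was seen. With 2 libraries per group both pairs give the same value, which cannot show that the libraries are unpaired. The replicate block changed no other call among the 10 genes and left 7 lower.

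Over the 10 genes and 17 alternatives, 155 of 170 values kept their direction and side of the threshold. With 2 libraries per group, small changes such as that of *Ep300* are near the limit of what these data can show.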
